A study of Mus musculus with 4 samples.

Results

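Blood monocytes were studied in a single-cell RNA sequencing series made from T cells enriched from the blood of MC-38 tumor-bearing mice. A cell was taken as a monocyte when at least 200 genes and at least 3 of 8 genes (Csf1r, Ms4a6c, Clec4a1, Clec4a3, Cd68, Fcgr3, Chil3 and Ear2) were detected in it. By this rule 136 of 5299 kept cells were monocytes, and the other 5163 cells were used for comparison. The 4 libraries came from C57BL/6 mice that carried the MC-38 colorectal carcinoma line under the skin, and blood was taken on day 18 after tumor challenge. One mouse was left untreated. The second received a blocking anti-PD-L1 antibody on days 10, 13 and 17. The third received an agonistic anti-OX40 antibody with the TLR9 ligand CpG on day 7, and its label names OX40 alone. The fourth received both treatments, named PDOX. Each library is 1 mouse and 1 treatment, so mouse, library and treatment cannot be told apart, and no difference between treatments was tested.

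Monocytes are myeloid cells that leave the bone marrow into the blood and depend on the growth factor receptor Csf1r. Mouse blood holds a classical form, marked by Ly6C and the chemokine receptor Ccr2, that enters inflamed tissue and tumors. It also holds a nonclassical form with low Ly6C, which depends on the nuclear receptor Nr4a1 and patrols the vessel wall. The T cell isolation was run on the blood in 2 rounds and was meant to remove cells of this kind, so the monocytes described here are those that passed it. Their share is a share of the enriched cells, not of blood leukocytes.

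Levels are given as UMIs (unique transcript molecules) per 10000, over all genes apart from mitochondrial, ribosomal protein and hemoglobin genes. Kept cells held a median of 3510.5 such UMIs when they were monocytes and 1615 when they were not. Across the 4 libraries the median of the monocytes ranged from 2363 in PDOX to 4854 in the untreated library, and that of the other cells from 1497 to 1702.5. Mitochondrial transcripts made up between 1.52% and 2.23% of monocyte UMIs, and ribosomal protein transcripts between 20.6% and 24.9%. Between pairs of libraries 16 cell barcodes were shared, and none of them was a monocyte.

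The rule genes described these cells as follows, with no test, since they chose them. Csf1r, the receptor for colony stimulating factor 1, was at 3.43 UMIs per 10000 in untreated, 6.04 in anti-PD-L1, 3.28 in anti-OX40/CpG and 7.57 in PDOX monocytes. It was detected in 83.8% of monocytes. Ms4a6c, a membrane protein of the Ms4a family, was between 12.4 and 20.7, above every other rule gene over all monocytes, although Chil3 was higher in anti-OX40/CpG. The lectin receptors Clec4a1 and Clec4a3 were at 4.22 to 7.76 and at 2.27 to 9.37. Cd68, a lysosomal glycoprotein, and Fcgr3, a low-affinity IgG receptor, stayed within narrow ranges of 3.79 to 5.27 and 4.32 to 5.30. Ear2, a ribonuclease, ranged from 2.52 to 6.53. Chil3, a chitinase-like protein, had the widest range, with 11.4 in untreated, 3.43 in anti-PD-L1, 29.8 in anti-OX40/CpG and 15.5 in PDOX monocytes. One cell held 21.3% of all Chil3 UMIs.

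Near the threshold the picture was mixed. The 18 cells with exactly 3 rule genes had a median of 1425 UMIs, all of them held Lyz2, and their Lyz2 level was 60.6 UMIs per 10000. The 47 cells with exactly 2 rule genes, which were not taken, had 18.9, with Lyz2 in 51.1% of them, and 53.2% of these cells held at least 2 of the 3 Cd3 genes. The 36 cells with 6 rule genes stood at 392 UMIs of Lyz2 per 10000.

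The labelled identity was checked on markers. Lyz2, which encodes lysozyme M and was not in the rule, was at 397 UMIs per 10000 in untreated, 246 in anti-PD-L1, 375 in anti-OX40/CpG and 432 in PDOX monocytes. In the other cells it was between 0.215 and 3.40, so the groups did not overlap. Most marker lists of other cell types were lower in monocytes than in the other cells. The 13 measured T cell markers summed to between 3.03 and 8.58 UMIs per 10000 in monocytes and to between 96.1 and 97.3 in the other cells. B cell markers summed to at most 0.663, with 2 of 8 at 0, and NK cell markers to at most 4.08, with 3 of 10 at 0. Of 8 basophil and mast cell markers 7 were at 0, of 8 platelet markers 2, of the 4 measured erythroid markers 3 and of 10 tissue macrophage markers 7, C1qa among them. Conventional dendritic cell markers summed to 2.45 over all monocytes and 5.17 over the other cells, with 3 of 11 at 0, but Cd209a was at 0.890 against 0.0588 and Clec10a at 0.418 against 0.00222. Plasmacytoid dendritic cell markers were higher in monocytes, 7.39 against 5.33, with 3 of 10 at 0, Siglech among them, and most of the sum was Bst2 (4.32) and Irf8 (2.49). The tissue macrophage list was higher as well, 1.40 against 0.0222, nearly all of it Adgre1, which encodes F4/80 and was found in 33.8% of monocytes. At least 2 Cd3 genes were found in 13 monocytes (8 in anti-PD-L1, 3 in untreated and 1 in each of the others). No doublet caller was run, and whether these were pairs of cells was not tested.

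One marker list stood apart. The 14 neutrophil markers summed to 57.5 UMIs per 10000 in the anti-PD-L1 monocytes and to between 1.01 and 3.12 in the other 3 libraries. They summed to 31.5 over all monocytes and 13.7 over the other cells. One cell held 98.8% of the S100a8, 99.4% of the S100a9 and 98.8% of the Retnlg UMIs of all monocytes. S100a8 and S100a9 encode calcium-binding proteins of neutrophils. At least 2 of S100a8, S100a9 and Retnlg were found in 3 monocytes, 2 of them from the anti-PD-L1 library and 1 from anti-OX40/CpG. Not every marker of the list lay in 1 cell, since Csf3r was found in 28 monocytes. Of the 5 markers of this list in the test against all other cells given below, 1 was higher (Csf3r) and 1 lower (Mxd1).

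Monocytes differed from all other cells in a large part of the transcriptome. Summed per library and compared with edgeR's quasi-likelihood test with the library as a block, 1149 of 7193 genes were higher in monocytes (16.0%) and 1151 lower (16.0%) at an adjusted p under 0.05. The rule genes were left out of this test. The cells were chosen by transcripts of the same lineage, so the direction of monocyte genes is partly given by the choice.

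Fc receptors and their signaling partners were higher as a group, in 18 of 18 genes tested. The highest fold change of all named genes was that of Fcgr1, the high-affinity IgG receptor. It was at 1.05 UMIs per 10000 in untreated, 2.20 in anti-PD-L1, 0.757 in anti-OX40/CpG and 0.947 in PDOX monocytes, against 2 UMIs in all other cells together. Its log2 fold change was 8.71 ± 0.56 (SE, 4 libraries, edgeR adjusted p = 2.87e-18). The shared signaling chains Fcer1g and Tyrobp were at 43.2 to 72.8 and 54.0 to 72.6 UMIs per 10000 in the 4 libraries. Their log2 fold changes were 5.08 ± 0.23 and 4.81 ± 0.23.

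The antimicrobial lysozymes followed, with a log2 fold change of 7.97 ± 0.34 for Lyz2 (adjusted p = 6.29e-25) and 8.26 ± 0.58 for its near copy Lyz1, for which reads can be split between the 2 copies. Other large increases were in Serpinb10, a protease inhibitor (7.86 ± 0.43), Nupr1, a stress-induced nuclear protein (7.83 ± 0.38), Fabp4, a fatty acid carrier (7.81 ± 0.53), Cd302, a lectin receptor (7.68 ± 0.42), and Ly6i of the Ly6 family (7.36 ± 0.32), and in Gm9733 (7.85 ± 0.52) and AI839979 (7.65 ± 0.53), for which no role is given here. All were higher in monocytes in 4 of 4 libraries. The decreases that the test fitted as largest were in genes with 0 UMIs in monocytes, so their order was not measured. Genes detected in both classes can have fallen as far. Cd3d, for one, was at 0.799 UMIs per 10000 in monocytes and 18.6 in the other cells. Gimap7, a lymphocyte GTPase, had 0 UMIs in monocytes and 1733 in the other cells. Taken against a floor of 3 UMIs over the monocytes of all libraries, it was at least 35.3-fold lower. By the same floor Prkca, a protein kinase C, was at least 18.7-fold lower, Rora, a nuclear receptor of lymphoid cells, at least 12.2-fold, the ubiquitin ligase Rnf125 at least 11.7-fold and the NK receptor Klre1 at least 10.2-fold.

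**Figure D1:**
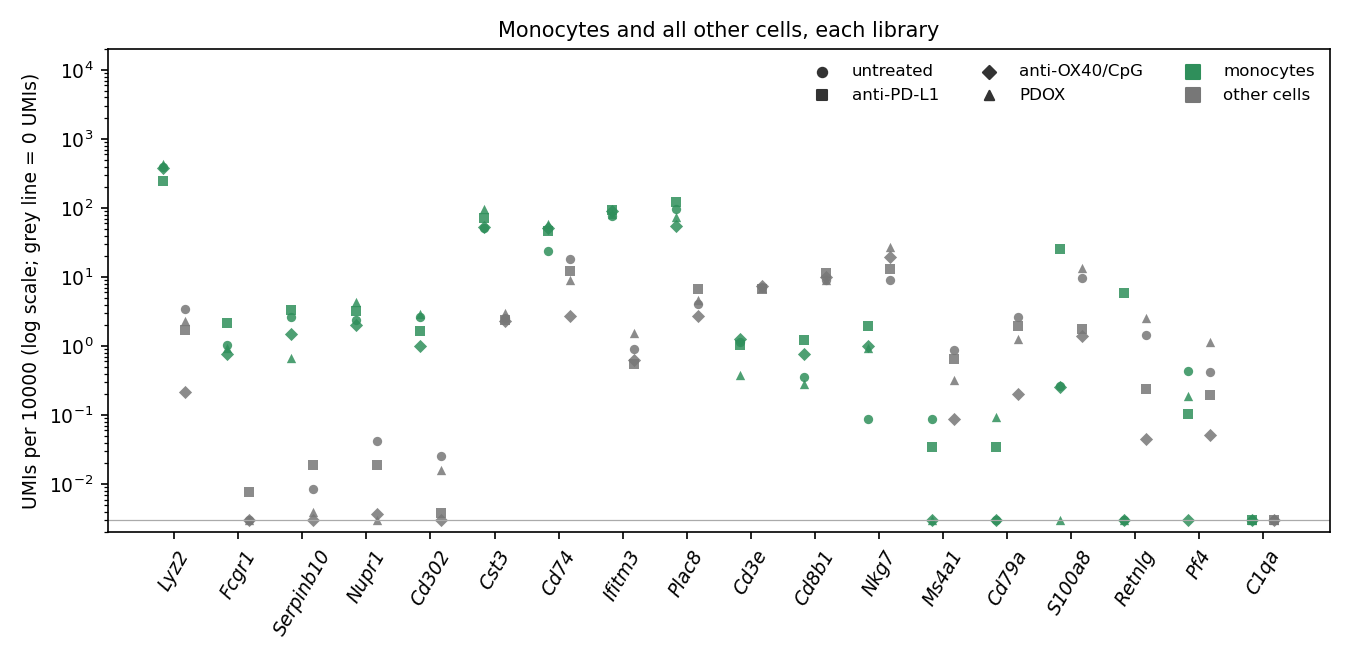
UMIs per 10000 (log axis) of selected genes in monocytes (green) and all other cells (grey), with 1 point per library and 0 drawn on the grey line. The monocyte genes on the left are separated in every library, with Lyz2 between 246 and 432 in monocytes, whereas the T, B and NK cell genes are lower in monocytes and S100a8 and Retnlg are high in the anti-PD-L1 monocytes.

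Transcription factors of the myeloid lineage were higher in 10 of 15 tested, among them Spi1, which encodes PU.1 (5.37 ± 0.24 on the log2 scale), Irf5 (4.57 ± 0.25), Cebpa (4.52 ± 0.48), Klf4 (3.71 ± 0.24) and Zeb2 (3.10 ± 0.22). Klf2, a factor that naive T cells use, and Id2 were lower. Lysosomal genes were higher in 16 of 19, with Cst3, a cathepsin inhibitor, at 51.2 to 98.5 UMIs per 10000 and Ctss, the cathepsin that trims the MHC class II chaperone, at 23.5 over all monocytes. Of the NADPH oxidase, which makes superoxide in phagocytes, 5 of 6 subunits were higher, led by Cybb (6.11 ± 0.25), and Rac2 was lower. MHC class II genes were higher in 6 of 8, such as Cd74 at 44.9 UMIs per 10000 over all monocytes and 9.32 over the other cells, and H2-Oa and H2-Ob were lower.

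Type I interferon-stimulated genes were mostly higher, and MHC class I genes were not. Of 14 MHC class I genes none was higher and 6 were lower, with H2-K1 at -0.83 ± 0.21 and H2-Q7 at -1.92 ± 0.23. Of 30 type I interferon-stimulated genes 17 were higher and 2 lower, with Irf7 at 1.38 ± 0.23 and Ly6a at -2.98 ± 0.27. Of 16 genes induced by interferon-gamma 3 were higher and 7 lower. Ifitm2, Ifitm3 and Ifitm6, which restrict virus entry, were higher, with Ifitm3 at 76.9 to 92.8 UMIs per 10000, and Ifitm1 and Ifitm10 were lower. The median log2 fold change of all genes tested was -0.16.

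The share of monocytes differed between libraries. It was 3.06% in the untreated library (24 of 784 cells, exact 95% interval 1.97 to 4.52), 4.15% in anti-PD-L1 (60 of 1446, 3.18 to 5.31), 0.770% in anti-OX40/CpG (12 of 1559, 0.398 to 1.34) and 2.65% in PDOX (40 of 1510, 1.90 to 3.59). The anti-OX40/CpG interval lay below the other 3, which overlapped. Monocytes of that library and of PDOX held fewer UMIs, and a shallower cell shows fewer rule genes. When every cell was thinned to 750 UMIs, which left 677, 1358, 1380 and 1321 cells in the order above, the shares were 2.07%, 2.65%, 0.362% and 1.89%, and the interval of anti-OX40/CpG, 0.118 to 0.843, again lay below the others. Intervals cover counting error only. How the isolation acted on each blood sample was not tested.

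**Figure D2:**
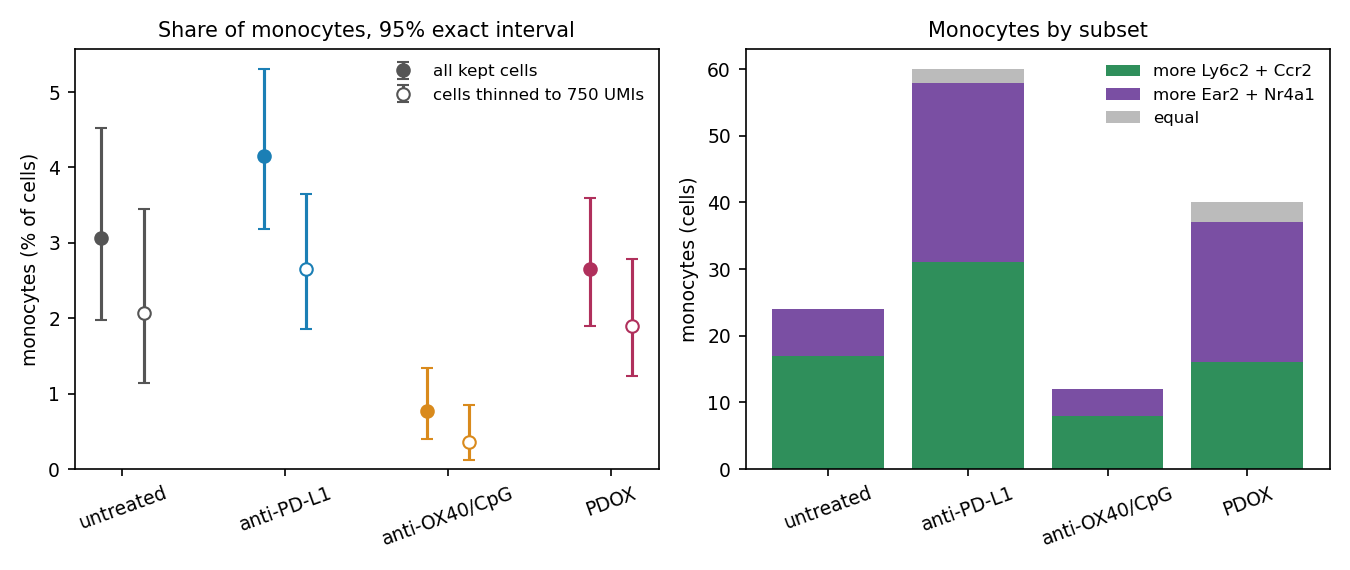
Left, monocytes as a percent of kept cells in each library with exact 95% intervals, for all kept cells (filled) and for cells thinned to 750 UMIs (open). Right, the number of monocytes in each library by subset, from 12 in anti-OX40/CpG to 60 in anti-PD-L1.

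Monocytes were then divided by the genes that mark the 2 known forms. A cell with more UMIs of Ly6c2 plus Ccr2 than of Ear2 plus Nr4a1 was placed in the Ly6c2/Ccr2 subset, and one with fewer in the Ear2/Nr4a1 subset. This gave 72 and 59 cells, with 5 cells equal. The division was not sharp in all cells, since both pairs of genes were detected in 55 monocytes, only the first in 32, only the second in 47 and neither in 2, and in 17 cells the pairs differed by 1 UMI. The Ly6c2/Ccr2 cells made up 17 of 24 assigned monocytes in the untreated library (70.8%, exact interval 48.9 to 87.4), 31 of 58 in anti-PD-L1 (53.4%, 39.9 to 66.7), 8 of 12 in anti-OX40/CpG (66.7%, 34.9 to 90.1) and 16 of 37 in PDOX (43.2%, 27.1 to 60.5). All 4 intervals overlapped, and no difference between libraries was tested.

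The Ly6c2/Ccr2 cells held more RNA molecules. Their median was 5335 UMIs in untreated, 6012 in anti-PD-L1, 3379.5 in anti-OX40/CpG and 3408 in PDOX, against 2497, 2283, 2249.5 and 1700 in the Ear2/Nr4a1 cells. It was higher in 4 of 4 libraries.

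**Figure D3:**
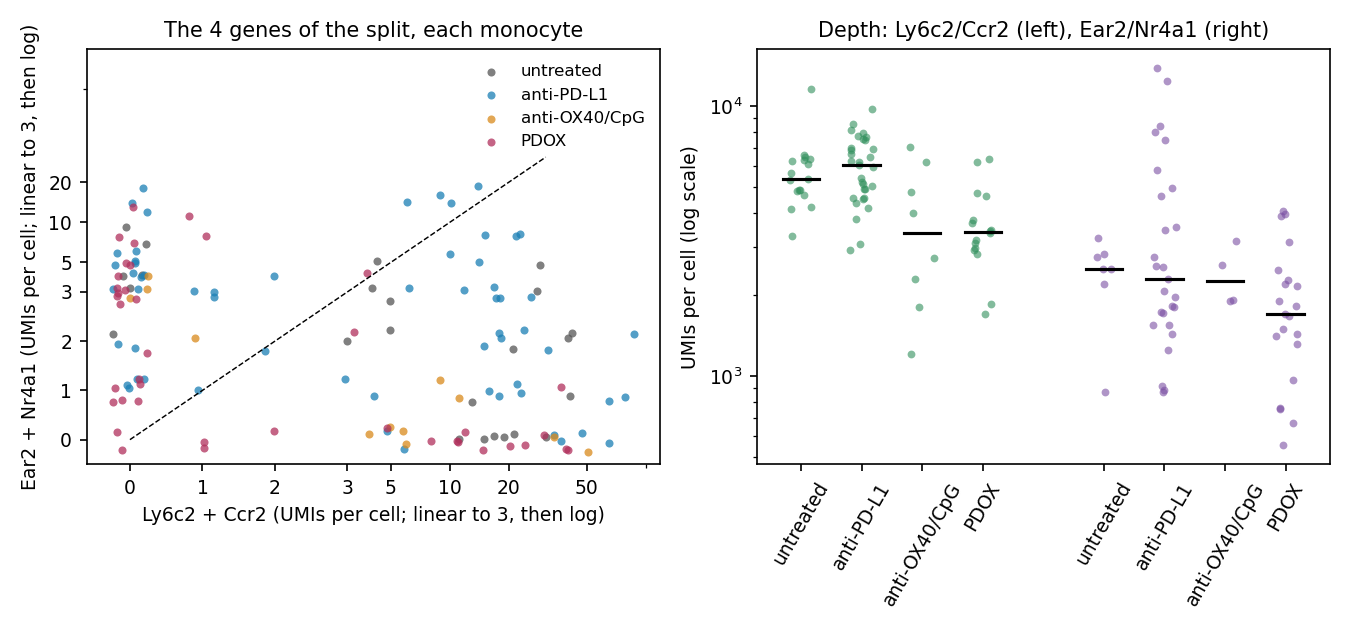
Left, UMIs of Ly6c2 plus Ccr2 and of Ear2 plus Nr4a1 in each of the 136 monocytes, colored by library and shifted slightly at random, with the dashed line at equality. Right, UMIs per cell (log axis) in both subsets, with 1 point per cell and the median as a bar. The medians of the Ly6c2/Ccr2 cells lie above those of the Ear2/Nr4a1 cells in each library.

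The subsets were compared across all genes in the 3 libraries with at least 5 cells of each, which left out the 8 and 4 cells of anti-OX40/CpG. Of 1333 genes tested, 100 were higher (7.50%) and 135 lower (10.1%) in the Ly6c2/Ccr2 cells by edgeR's quasi-likelihood test with the library as a block. The 4 genes of the division were left out. Rule genes stayed in the fit, so that Chil3, Csf1r and Fcgr3 are in these counts, but no test is read for them. Without the anti-PD-L1 library, which held the most monocytes, 47 and 61 genes passed, and DESeq2 called 29 and 41. The left-out library was not in the fit. Its 8 and 4 cells were divided by the same 4 genes, so agreement in direction is partly given by the division. Of the 96 genes called higher that had at least 5 UMIs in its monocytes, 88.5% were higher in its Ly6c2/Ccr2 cells, and of the 105 called lower 89.5% were lower. Over all 1117 genes with that many UMIs, 55.6% were higher and 44.4% lower.

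Genes of classical monocytes were higher in the Ly6c2/Ccr2 cells in 9 of 11 tested, the rule gene Chil3 among them, and lower in none (median log2 fold change 1.17, against 0.03 over all genes). F13a1, the A chain of coagulation factor XIII, was at 3.51 UMIs per 10000 in untreated, 2.75 in anti-PD-L1, 5.32 in anti-OX40/CpG and 5.16 in PDOX Ly6c2/Ccr2 cells, and had 0 UMIs in the Ear2/Nr4a1 cells of all 4 libraries. Against a floor of 3 UMIs over the 3 libraries compared, it was at least 17.9-fold higher (adjusted p = 1.81e-08). The matrix protein Fn1 likewise had 91 UMIs against 0, at least 14.2-fold higher (adjusted p = 3.10e-07). Lyz2 was at 417, 297, 441 and 620.5 UMIs per 10000 in the Ly6c2/Ccr2 cells and at 281, 153, 170 and 191 in the Ear2/Nr4a1 cells, with the libraries in the order used for F13a1. It was higher in every library, by 1.05 ± 0.15 on the log2 scale. The acute phase protein Hp (1.25 ± 0.30) and the glutathione transferase Mgst1 (1.17 ± 0.30) were higher as well.

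S100 proteins, annexins and their partners moved together, with 12 of 13 higher and none lower (median 1.60). S100a10, the partner of annexin A2, was at 19.8, 15.4, 16.3 and 10.7 UMIs per 10000 in the Ly6c2/Ccr2 cells in the same order. It was at 1.78, 2.25, 2.09 and 0.494 in the Ear2/Nr4a1 cells, and the log2 fold change was 3.13 ± 0.32 (adjusted p = 1.79e-10). The galectin Lgals1 was at 12.2 to 21.8 against 1.23 to 3.14 (2.96 ± 0.30). S100a6 (1.99 ± 0.26), the filament protein Vim (1.87 ± 0.26), Crip1 (1.67 ± 0.23) and Anxa2 (1.60 ± 0.27) were higher as well.

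The other large increases were in genes of several kinds. Capg, which caps actin filaments, had the largest of those detected in both subsets (4.31 ± 0.46, adjusted p = 6.37e-10), with 222 UMIs against 5. It was followed by the lectin receptor Clec4a2 (3.65 ± 0.72), the fatty acid elongation enzyme Hacd4 (3.08 ± 0.60), the mitochondrial ADP/ATP carrier Slc25a4 (2.71 ± 0.55), the secreted protein Wfdc17 (2.63 ± 0.34), the protease inhibitor Slpi (2.51 ± 0.53) and the complement factor properdin, Cfp (2.15 ± 0.57). Chil3, a rule gene, was at 13.2, 3.99, 38.9 and 27.8 UMIs per 10000 in the Ly6c2/Ccr2 cells and at 1.19, 2.45, 1.05 and 0 in the Ear2/Nr4a1 cells, which is given as a description. MHC class II genes were higher in 3 of 6 (H2-Ab1, H2-DMa and H2-DMb1), and the chemokines Ccl6 (0.71 ± 0.25) and Ccl9 (2.02 ± 0.32) were higher too.

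Genes of nonclassical monocytes were lower in the Ly6c2/Ccr2 cells, and so higher in the Ear2/Nr4a1 cells, in 10 of 10 tested (median -2.44). Cd300e, an activating receptor of monocytes, was at 4.74, 4.61, 4.19 and 7.16 UMIs per 10000 in the Ear2/Nr4a1 cells, and 2 UMIs were found in the Ly6c2/Ccr2 cells. Its log2 fold change was -6.13 ± 0.55 (adjusted p = 1.61e-11). Fcgr4, the IgG receptor that mediates killing of antibody-coated cells, was at 2.96, 8.33, 13.6 and 10.9 against 0.310, 0.809, 0 and 1.37 (-3.23 ± 0.33, adjusted p = 1.79e-10). The angiotensin-converting enzyme Ace (-2.78 ± 0.34), the muscle-type enolase Eno3 (-3.10 ± 0.38), the adhesion receptor Adgre4 (-2.45 ± 0.37), Treml4 (-2.43 ± 0.36), the factor Pou2f2 (-2.24 ± 0.27), Spn, which encodes CD43 (-2.08 ± 0.35), and the integrin chain Itgal (-1.82 ± 0.28) did likewise. Cx3cr1, the fractalkine receptor, had the value nearest to 0 of the genes named here (-0.98 ± 0.33, adjusted p = 0.0290).

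Survival genes of the Bcl2a1 family were lower in the Ly6c2/Ccr2 cells in all 3 copies measured. Bcl2a1d was at 6.52, 7.55, 2.09 and 16.3 UMIs per 10000 in the Ear2/Nr4a1 cells and at 0.206, 1.02, 0.332 and 0.516 in the Ly6c2/Ccr2 cells. Log2 fold changes were -4.59 ± 0.47 for Bcl2a1a, -3.70 ± 0.35 for Bcl2a1d and -3.60 ± 0.36 for Bcl2a1b. These copies are nearly identical, so counting can split or drop their reads. Pglyrp1, which binds bacterial peptidoglycan (-3.27 ± 0.30), Cd300ld (-3.71 ± 0.44), the signaling adaptor Stap1 (-2.69 ± 0.37) and the Ly6 family gene Ly6i (-2.85 ± 0.30) were lower as well. All genes named here were chosen for large changes in the same direction in the libraries compared, so a gap between the subsets is partly given.

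MHC class I genes were lower in the Ly6c2/Ccr2 cells in 6 of 12 and higher in none. B2m, the light chain, was at 126, 140, 119 and 149 UMIs per 10000 in the Ear2/Nr4a1 cells and at 65.9, 91.4, 56.2 and 79.2 in the Ly6c2/Ccr2 cells (-0.84 ± 0.16). H2-Q6 differed most (-3.11 ± 0.46), a gene with close copies. Csf1r, a rule gene for which no test is read, was at 2.48, 4.69, 3.66 and 5.33 UMIs per 10000 in the Ly6c2/Ccr2 cells and at 8.89, 8.33, 2.09 and 10.1 in the Ear2/Nr4a1 cells. The factors Cebpb (-1.78 ± 0.30) and Klf4 (-1.72 ± 0.30), the cytokine Il1b (-2.41 ± 0.49) and the lipid carrier Apoe (-2.05 ± 0.33) were lower. The gap in Apoe was uneven between libraries. It was at 3.72, 4.10, 10.3 and 38.1 UMIs per 10000 in the Ly6c2/Ccr2 cells and at 55.1, 21.9, 13.6 and 44.2 in the Ear2/Nr4a1 cells. Of the 2 innate sensing and 5 NADPH oxidase genes tested none passed in either direction.

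**Figure D4:**
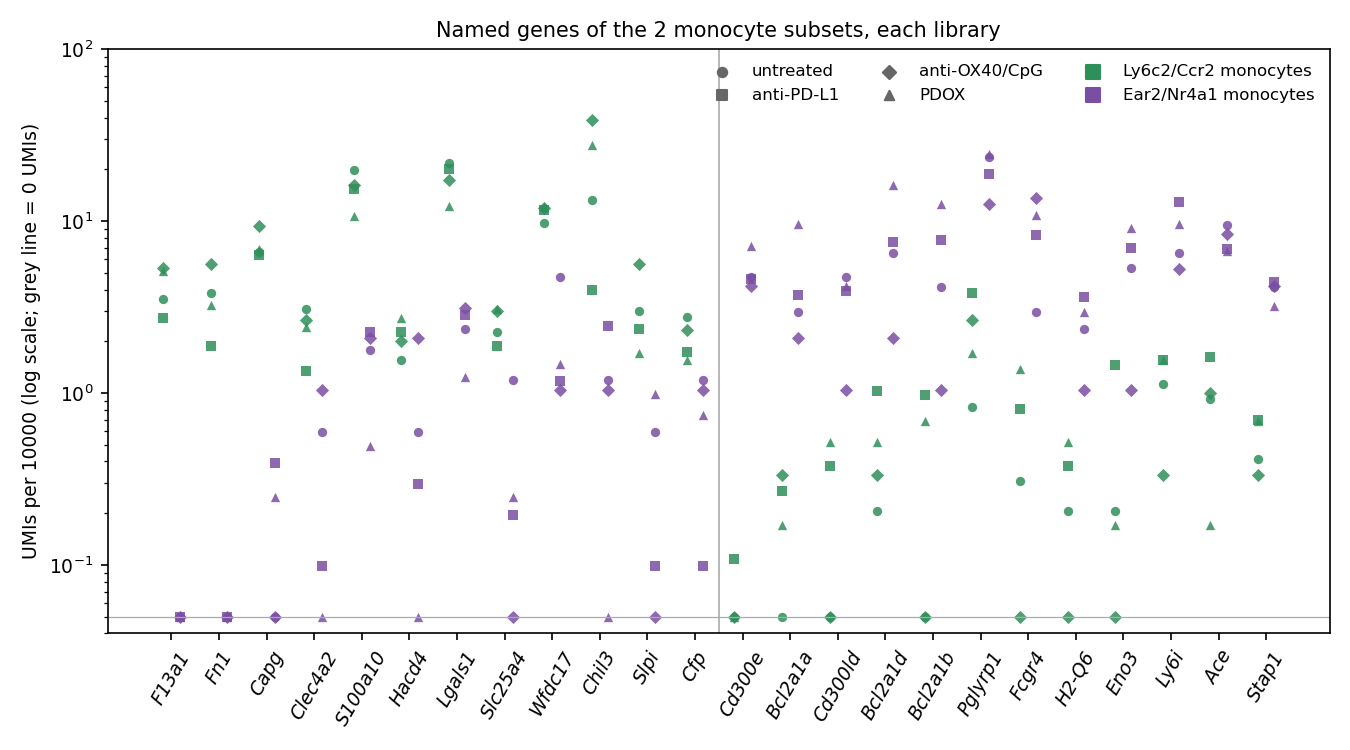
UMIs per 10000 (log axis) of the 24 named genes in Ly6c2/Ccr2 (green) and Ear2/Nr4a1 (purple) monocytes, with 1 symbol per library and 0 drawn on the grey line. The 12 genes on the left are higher in the Ly6c2/Ccr2 cells and the 12 on the right in the Ear2/Nr4a1 cells in the 3 libraries compared.

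The promoters of these genes were read for letters bound by 3 factors of monocytes. RefSeq promoters of the GRCm38.p6 assembly were found for 77 of the 100 genes higher in the Ly6c2/Ccr2 cells and for 99 of the 135 lower. Of the 250 bases before the start site, GAGGAAG, the core of a PU.1 site, was present on either strand in 14.3% of the first group and 27.3% of the second, against 13.6% of all tested genes with a promoter and 12% of all promoters. The C/EBP core TTGCNNAA was present in 10 genes of the first group and 11 of the second, 11.1% of the latter, against 10.8% of all promoters. The Nr4a1 site AAAGGTCA was present in 1 gene of the first group (1.30%) and 0 of the second. It was present in 1.15% of all tested genes with a promoter and 1.55% of all promoters. Among the genes named above with a promoter, GAGGAAG was found for 2 of 9 higher and 7 of 10 lower in the Ly6c2/Ccr2 cells. Of these 7, Bcl2a1a, Bcl2a1b and Bcl2a1d are near-identical copies that share the stretch with the match, so the 7 are not independent, and F13a1 and Ace each have a second promoter without a match. A match is a description of the letters and shows no binding.

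The upstream windows of 6 named genes that hold the PU.1 letters are printed to show where they lie, 5′ to 3′ on the strand of the gene, with matches in capitals. They are Bcl2a1a (chr9:88956670-88956919, plus strand), Pglyrp1 (chr7:18884440-18884689, plus), Fcgr4 (chr1:171018676-171018925, plus) and Ace (chr11:105967698-105967947, plus), higher in the Ear2/Nr4a1 cells, and F13a1 (chr13:37050245-37050494, minus) and Wfdc17 (chr11:83703806-83704055, plus), higher in the Ly6c2/Ccr2 cells. The match starts 110 and 104 bases before the start site in Bcl2a1a, where 2 copies overlap, 113 and 63 in Pglyrp1, 23 in Fcgr4, 218 and 89 in Ace, 66 in F13a1 and 40 in Wfdc17.
Bcl2a1a: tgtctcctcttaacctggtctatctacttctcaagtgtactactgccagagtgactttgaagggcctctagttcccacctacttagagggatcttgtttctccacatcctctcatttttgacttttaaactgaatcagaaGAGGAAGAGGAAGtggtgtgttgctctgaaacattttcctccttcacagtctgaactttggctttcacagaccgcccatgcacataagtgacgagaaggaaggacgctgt
Pglyrp1: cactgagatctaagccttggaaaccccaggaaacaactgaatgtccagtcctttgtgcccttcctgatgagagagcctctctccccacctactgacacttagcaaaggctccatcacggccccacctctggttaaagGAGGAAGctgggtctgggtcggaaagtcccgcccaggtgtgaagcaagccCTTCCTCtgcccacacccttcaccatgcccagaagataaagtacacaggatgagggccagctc
Fcgr4: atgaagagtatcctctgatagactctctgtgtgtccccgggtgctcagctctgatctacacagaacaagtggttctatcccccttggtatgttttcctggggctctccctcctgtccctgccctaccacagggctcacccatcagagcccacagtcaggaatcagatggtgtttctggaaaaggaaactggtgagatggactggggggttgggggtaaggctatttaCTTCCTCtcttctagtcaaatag
Ace: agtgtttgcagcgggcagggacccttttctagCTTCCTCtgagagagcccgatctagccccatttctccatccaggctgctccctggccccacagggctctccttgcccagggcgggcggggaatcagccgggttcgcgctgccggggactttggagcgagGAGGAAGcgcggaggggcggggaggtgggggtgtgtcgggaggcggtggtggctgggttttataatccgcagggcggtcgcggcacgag
F13a1: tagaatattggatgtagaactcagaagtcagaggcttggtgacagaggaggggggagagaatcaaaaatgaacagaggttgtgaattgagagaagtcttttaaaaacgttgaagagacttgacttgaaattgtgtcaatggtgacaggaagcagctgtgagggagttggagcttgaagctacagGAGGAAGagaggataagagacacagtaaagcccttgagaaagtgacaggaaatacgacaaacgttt
Wfdc17: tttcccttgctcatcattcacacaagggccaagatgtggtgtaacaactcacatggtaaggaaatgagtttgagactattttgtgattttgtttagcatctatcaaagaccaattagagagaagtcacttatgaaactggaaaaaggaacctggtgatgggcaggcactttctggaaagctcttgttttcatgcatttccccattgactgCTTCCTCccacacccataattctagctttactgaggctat

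To compare treatments, the monocytes of each treated mouse were set against those of the untreated mouse, over 2844 genes with at least 30 UMIs. With 1 library a group these ratios were not tested, and intervals cover counting error only. At least 1.5-fold higher were 17.5% of genes in anti-PD-L1, 18.6% in anti-OX40/CpG and 19.9% in PDOX, and at least 1.5-fold lower were 13%, 24.9% and 20.4%. These shares are the background of the counts that follow. The median ratio over all genes was 1.01, 0.957 and 0.983.

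Genes of nonclassical monocytes were at higher levels in 2 of the treated libraries, with 12 of 14 past 1.5-fold in anti-PD-L1 (median ratio 2.12) and 10 of 14 in PDOX (1.95), and 4 of 14 in anti-OX40/CpG. The list holds Ear2, a gene of the rule and the division, and Nr4a1, a gene of the division. Both also placed the cells in the subsets read below. Fcgr4 was at 0.703 UMIs per 10000 in untreated, 3.60 in anti-PD-L1, 3.28 in anti-OX40/CpG and 5.40 in PDOX monocytes. The ratios were 5.12 (2.51 to 12.2), 4.66 (1.79 to 13) and 7.67 (3.64 to 18.6). Pou2f2 was at 3.16, 8.71, 4.54 and 8.52. The share of Ly6c2/Ccr2 cells was also lower in these 2 libraries, 53.4% and 43.2% against 70.8% in untreated, and its part in the result was not tested beyond the values within the subsets. Within the Ear2/Nr4a1 subset the median ratio of the same list was 1.03 in anti-PD-L1 and 1.03 in PDOX. Within the Ly6c2/Ccr2 subset it was 1.86 over 10 genes and 0.798.

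Type I interferon-stimulated genes were past 1.5-fold higher in 13 of 20 in anti-PD-L1 and lower in none, with a median ratio of 1.73. In anti-OX40/CpG 3 were higher and 7 lower (0.938), and in PDOX 6 and 3 (1.15). Irf7, the factor that amplifies interferon production, was at 1.76, 4.39, 1.51 and 2.27 UMIs per 10000 in the 4 libraries, a ratio of 2.50 in anti-PD-L1 (1.55 to 4.23). Zbp1, a nucleic acid sensor, was at 1.93, 4.49, 1.01 and 2.74. Anti-PD-L1 was highest in both genes. The median was 1.77 within the Ly6c2/Ccr2 subset (12 of 17 past 1.5-fold, against 15.3% of all genes there). It was 1.96 within the Ear2/Nr4a1 subset (7 of 10, against 24.8% of all genes there). In all other cells of the same library the median of these genes was 1.58. Genes induced by interferon-gamma were past 1.5-fold higher in 6 of 7 in anti-PD-L1 (median 2.41, other cells 2.14), among them Fcgr1 (2.08, 1.11 to 4.24) and the guanylate-binding protein Gbp2 (5.59, 1.79 to 28.2, with 3 UMIs in untreated).

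MHC class I genes were past 1.5-fold higher in 8 of 13 in anti-PD-L1 (median ratio 1.66) and 7 of 13 in PDOX (1.59). In anti-OX40/CpG none was higher and 2 were lower (0.910). H2-K1 was at 11.4 UMIs per 10000 in untreated, 24.0 in anti-PD-L1, 9.08 in anti-OX40/CpG and 24.6 in PDOX, with ratios of 2.10 (1.74 to 2.56), 0.795 (0.534 to 1.16) and 2.15 (1.74 to 2.68). B2m was at 74.9, 109, 71.4 and 110. The untreated and anti-OX40/CpG monocytes were thus low and the other 2 libraries high in both genes. In all other cells the H2-K1 ratios were 1.15, 1.13 and 1.26. The medians of the list there were 1.23 in anti-PD-L1, 1.12 in anti-OX40/CpG and 1.39 in PDOX. Medians of the list within the subsets were 1.39 and 1.56 in anti-PD-L1 and 1.21 and 1.22 in PDOX, for Ly6c2/Ccr2 and Ear2/Nr4a1 cells.

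MHC class II genes were past 1.5-fold higher in 5 of 6 in PDOX (median 1.86), 2 of 6 in anti-PD-L1 and 2 of 6 in anti-OX40/CpG, and lower in none. Cd74, the invariant chain, was at 24.1 UMIs per 10000 in untreated, 47.2 in anti-PD-L1, 51.2 in anti-OX40/CpG and 58.7 in PDOX monocytes. All 3 treated libraries were above the untreated one, with ratios of 1.96 (1.72 to 2.24), 2.13 (1.76 to 2.56) and 2.44 (2.11 to 2.82). H2-Aa was at 5.01, 9.33, 9.84 and 15.6, a ratio of 3.12 in PDOX (2.29 to 4.29). The largest share of a single cell in the UMIs of all monocytes was 14.8% for H2-Aa and 12.2% for H2-Ab1. Within the Ly6c2/Ccr2 subset all 6 genes were past 1.5-fold higher in PDOX (median 2.46), and within the Ear2/Nr4a1 subset 4 of 5 (2.24). In the other cells the list lay on the opposite side of 1, with a median of 0.610 in PDOX and 0.200 in anti-OX40/CpG, and their B cell markers summed to 7.33, 5.50, 0.663 and 3.46 UMIs per 10000 in the 4 libraries.

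S100 proteins and annexins were past 1.5-fold lower in 9 of 16 in PDOX and higher in none (median 0.631), while their median in the other cells of PDOX was 2.15. S100a4 was at 24.9, 23.2, 22.2 and 13.5 UMIs per 10000 in the 4 libraries, a ratio of 0.544 in PDOX (0.442 to 0.668), and Crip1 at 53.6, 43.2, 64.6 and 20.4, a ratio of 0.381 (0.325 to 0.446). PDOX was lowest in both. Within the Ear2/Nr4a1 subset 8 of 12 were lower in PDOX (median 0.520), against 21.8% of all genes there. Within the Ly6c2/Ccr2 subset 4 of 16 were lower (0.814), near the 23.9% of all genes there. Classical monocyte genes, 3 of them genes of the rule or the division, were past 1.5-fold higher in 1 and lower in 4 of 13 in anti-PD-L1 (median 0.715), in 4 and 1 in anti-OX40/CpG (1.21) and in 0 and 3 in PDOX (0.95). Among them Chil3, with 21.3% of its UMIs in 1 cell, was at a ratio of 0.300 in anti-PD-L1 (0.229 to 0.393) and 2.61 in anti-OX40/CpG (2.01 to 3.37), and Plac8 at 1.25 and 0.556.

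**Figure D5:**
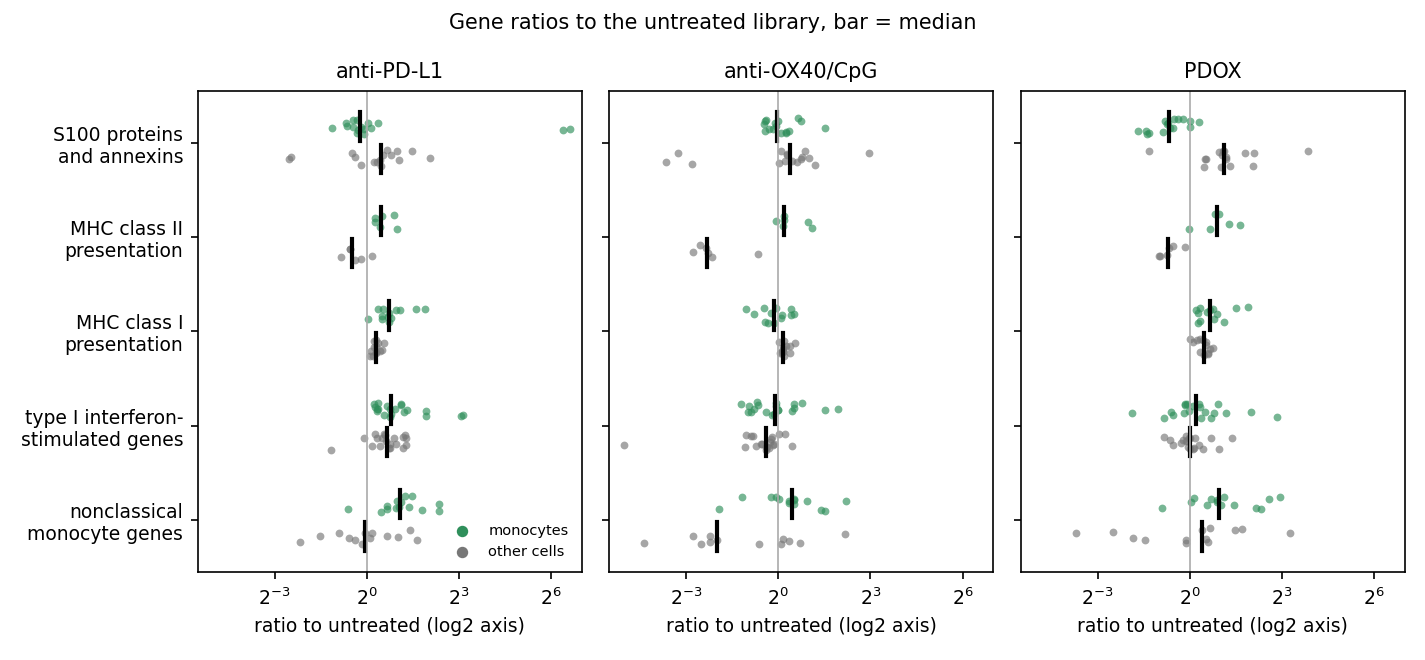
Ratio of each gene to the untreated library (log2 axis) in 5 gene lists, for monocytes (green) and all other cells (grey), with the median as a bar. A sum of 0 UMIs was replaced by 3, and a gene for which this gives no fold is drawn at 1. In PDOX the monocyte median is 1.86 for MHC class II and 0.631 for S100 proteins and annexins, and those of the other cells lie on the opposite side of 1.

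The single genes with the most extreme ratios rested mostly on few UMIs. In anti-PD-L1 the highest were S100a8, S100a9 and Retnlg, almost all from the 1 cell with neutrophil RNA described above. They were followed by Nkg7 and Ccl5, of cytotoxic granules and a T cell chemokine, with 58 and 50 UMIs against 1 each (ratios 22.6, interval 3.90 to 909, and 19.5, 3.35 to 786), and by the kinase Map3k8 (10.1, 1.67 to 416). Without monocytes with at least 2 Cd3 genes both Nkg7 and Ccl5 were at 3.33, and without cells over 2900 genes they were at 1.24 and 4.96. Ccl5 also had the highest ratio in anti-OX40/CpG, with 8 UMIs against 1, and in PDOX, with 21 against 1 (22.6, 3.64 to 935). In the other cells of these libraries its ratio was 1.68, 5.80 and 7.41. The chemokine Ccl3 was lower in anti-PD-L1 (0.217, 0.119 to 0.385), with Gm3839, Igfbp4, Tmem251, Gas7 and Amz1 at ratios of 0.150 to 0.244. In anti-OX40/CpG, Gm10076, a ribosomal-like pseudogene, was at 6.32 (4.18 to 9.71) and at 7.35 in the other cells. Emc3, Rin3, Nkg7 and Cops8 were at 7.89 to 17.2 there, and Lyz1, Gm3839, Atf4, Eif6, Lrrc58 and 2610001J05Rik, with 1 UMI each, at 0.0990 to 0.144. In PDOX, Lpcat2, Smagp, Emc3, Rgs3 and Map3k14 were at 11.8 to 18.3, each against 1 UMI in untreated. Stmn1, Pitpnc1, Lrrc58, Pdia4, Stx5a and Ifi205 were at 0.0299 to 0.108. The 36 UMIs of Stmn1, which binds tubulin in dividing cells, in the untreated library lay in 4 cells.

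Transcripts of the target of anti-PD-L1 were scarce. Cd274, which encodes PD-L1, had 16 UMIs in all monocytes, at 0.0879 UMIs per 10000 in untreated, 0.412 in anti-PD-L1, 0 in anti-OX40/CpG and 0.284 in PDOX. At this depth no difference between libraries could be read from it.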

How the data were processed

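The authors made 4 blood libraries by droplet-based 3′ single-cell RNA sequencing (10x v2 chemistry) after 2 rounds of T cell isolation, and the deposited matrices hold raw UMI counts per gene and cell made with Cell Ranger. Per the labels the processing notes name mm10 and Seurat 2. No other filter was applied here than those of the rule, and 13 mitochondrial, 109 ribosomal protein and 8 hemoglobin genes were not counted, which left 27868 genes. Of 5434 deposited barcodes, 5299 were kept. The members, gene lists and tests were chosen with earlier results of these data known.

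UMIs were summed per library and class of cells and tested with edgeR 4.0.16 in R 4.3.3 (TMM, its filter on low counts, quasi-likelihood test, Benjamini-Hochberg adjustment over all genes tested), with the library as a block because both classes come from the same library. The script was tested on simulated data. Between libraries, ratios have exact conditional binomial intervals at 95%, and 0 UMIs were set to a floor of 3 UMIs per library. Where this bound lay on the wrong side of 1 (57 genes in anti-OX40/CpG and 7 in PDOX) no fold was given, the gene counted in neither direction, and it entered medians as 1, a rule added after seeing the data. Shares have Clopper-Pearson intervals. Named are the rule and division genes, markers, the 10 largest increases and 5 largest decreases in monocytes and the 12 of each between subsets (adjusted p under 0.05, same direction in all libraries compared, at least 50 and 30 UMIs), the 6 highest and lowest ratios per library whose interval excludes 1, and list members with at least 20 UMIs. Cd274 and the genes whose promoters are printed were chosen after their values were seen. Motifs were searched in RefSeq promoter sequences of GRCm38.p6. Alternatives are given in the closing section. Some list members are not reported here by name.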

Additional observations from a re-analysis of the deposited data

Results flagged for a closer look

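The signals below are of genes outside the comparisons or of lists whose median ratio lay on opposite sides of 1 in monocytes and in other cells. Ribosomal protein genes, which were not counted, made up 24.9% of all monocyte UMIs in anti-OX40/CpG and 21.7% in PDOX, above the 20.8% of the untreated library, and the intervals for counting error did not overlap. In the other cells the shares were 41.2%, 33.3% and 39.9%. Within the Ly6c2/Ccr2 subset the shares were 24.0%, 21.9% and 20.6%, in the same order. Within the Ear2/Nr4a1 subset they were 27.7%, 21.5% and 21.7%, so PDOX was not above untreated there. In PDOX against untreated, the S100 and annexin list had a median ratio of 0.631 in monocytes and 2.15 in other cells. The MHC class II list was at 1.86 and 0.610. The list of Clec4 and other C-type lectin receptors, which holds 2 rule genes, was at 1.69 and 0.541. Its level in the other cells was very low, and cells that met the monocyte rule are not among them. In the unit of level used above, the list summed there to 0.495 in untreated and 0.475 in PDOX. The median of 0.541 thus rests on few UMIs, and the summed list was nearly the same in both libraries. The differences between cell types in these lists were not tested, since each treatment has 1 library.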

How the results depend on the processing

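Monocytes are few, 4 to 31 cells per subset and library, which limits every value by library. Thinning to 750 UMIs moved the share of monocytes to 2.65% in anti-PD-L1, 0.362% in anti-OX40/CpG and 1.89% in PDOX, and the share of Ly6c2/Ccr2 cells in anti-PD-L1 to 38.7%. Against other cells the counts stayed within 1.5 times (DESeq2 929 higher and 861 lower, each library left out 847 to 1230 and 798 to 1222, without the library as replicate block 1208 and 1253). Between subsets, 29 higher and 41 lower passed with DESeq2, 144 and 82 with no filter on low counts, 75 and 122 without the library as replicate block, 85 and 107 with all 4 libraries (added after seeing the data), and 47 to 102 and 61 to 135 with 1 library left out, lowest without anti-PD-L1. With at least 100 UMIs, fewer genes were past 1.5-fold: 11.4% higher and 6.71% lower in anti-PD-L1, 11.5% and 15.8% in anti-OX40/CpG, and 13.4% lower in PDOX. Of the alternative log2 fold changes of named genes none changed sign, and 505 stayed on the same side of the threshold, whereas Slc25a4, Slpi, Cfp and the rule gene Chil3 did not pass with DESeq2.

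Of the named ratios between libraries, only that of S100a8 in anti-PD-L1 crossed 1, at 0.617 with at least 4 rule genes and at 0.677 without the 3 cells with neutrophil RNA (added after seeing the data). Another 20 ratios left their main interval without crossing 1, and 317 stayed within it. Some of the 317 could not move. The setting of at least 100 UMIs keeps each ratio as it was, and no PDOX or untreated monocyte was among the 3 cells with neutrophil RNA. S100a9 and Retnlg in anti-PD-L1 had no ratio with at least 4 rule genes or without these cells, and are not counted there. Nkg7 and Ccl5 in anti-PD-L1 were both at 3.33 without cells with at least 2 Cd3 genes, and Nkg7 was at 1.24 without cells over 2900 genes. Except where cells were left out or genes were fewer by construction, the cause was not tested.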
